A study of Mus musculus with 7 samples.

Results

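The let-7 family is a set of microRNAs (miRNAs) that share one seed, the stretch that pairs with target mRNAs. Its 9 guide arms in the mouse, the strands that act in the silencing complex, are let-7a-5p, let-7b-5p, let-7c-5p, let-7d-5p, let-7e-5p, let-7f-5p, let-7g-5p, let-7i-5p and miR-98-5p. In the table they are listed as mmu-let-7a-5p, mmu-let-7b-5p, mmu-let-7c-5p, mmu-let-7d-5p, mmu-let-7e-5p, mmu-let-7f-5p, mmu-let-7g-5p, mmu-let-7i-5p and mmu-miR-98-5p. They were found by name among the 1978 mature miRNAs of a small RNA table, where they stood on 12 of 2128 lines, 1 for each of 12 precursors, and lines of the same mature name were summed. The RNA came from sorted splenic CD8+ T cells of gBT-I mice. Their T cells all express a transgenic receptor for a herpes simplex virus peptide, so every group shares that transgene. True naive (TN) cells were sorted as CD44lo CD122lo, and virtual memory (VM) cells, which bear memory markers without having met antigen, as CD44hi CD122hi. There were 2 libraries of adult TN, 2 of adult VM, 2 of neonatal VM and 1 of neonatal TN cells. No treatment is given, and the ages in days are not given in the sources used here. The comparisons asked how let-7 levels differ with age and between the subsets.

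The let-7 miRNAs are known for rising as cells leave the embryonic state and for restraining growth and cell cycle genes such as Myc, Hmga2 and Lin28 itself. LIN28 proteins, which are active in fetal blood cell progenitors, bind the loop of let-7 precursors and block their maturation, so that let-7 RNA can change without a change in transcription. In CD8+ T cells, let-7 is known to fall after receptor signals and to hold back effector differentiation.

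The mature sequences are shown because the 9 members differ at few bases, which sets both what they share and how well reads can be told apart. Sequences are from RefSeq (GRCm38.p6), which matched all 9 names, 5′ to 3′, with the seed (bases 2 to 8) in capitals.
let-7a-5p: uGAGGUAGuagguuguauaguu
let-7b-5p: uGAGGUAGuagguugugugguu
let-7c-5p: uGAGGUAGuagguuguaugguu
let-7d-5p: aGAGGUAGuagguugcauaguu
let-7e-5p: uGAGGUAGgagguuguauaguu
let-7f-5p: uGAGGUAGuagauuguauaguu
let-7g-5p: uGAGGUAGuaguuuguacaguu
let-7i-5p: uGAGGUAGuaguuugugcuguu
miR-98-5p: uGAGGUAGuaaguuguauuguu
All 9 carry the seed GAGGUAG. Counting positions from the 5′ end of let-7a-5p, with the let-7a-5p base first, let-7c-5p differs by A19G, let-7e-5p by U9G and let-7f-5p by G12A. Relative to let-7a-5p, let-7b-5p carries A17G and A19G, let-7d-5p carries U1A and U16C, let-7g-5p carries G12U and U18C, and miR-98-5p carries G11A and A19U. The most distant member, let-7i-5p, carries G12U, A17G, U18C and A19U. Only 2 other names of the 1679 mature miRNAs in the RefSeq table have the same seed, let-7k and miR-1961, and each had at most 0.5 estimated counts in any library here. Because several members are 1 base apart, sequencing errors or mismatches allowed in alignment could move reads between them, and the mismatch setting is not given in the sources used here.

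The part of a precursor between its arms is where LIN28 is known to bind. It is shown here for only 4 of the 12 precursors. Capitals mark the motifs GGAG and GAU, searched on the RNA strand, with a GAU counted only where it did not overlap a GGAG.
Mirlet7b: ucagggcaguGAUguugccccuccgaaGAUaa
Mirlet7c-2: uugggcucugccccgcucugcgguaa
Mirlet7g: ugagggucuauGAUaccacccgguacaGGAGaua
Mirlet7i: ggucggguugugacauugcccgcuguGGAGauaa
The Mirlet7b stretch lies at chr15:85707347-85707378 on the plus strand, that of Mirlet7c-2 at chr15:85706638-85706663 on the plus strand, that of Mirlet7g at chr9:106178868-106178901 on the plus strand and that of Mirlet7i at chr10:122985664-122985697 on the minus strand (GRCm38.p6). GGAG was found in 9 of the 12 let-7 precursors and not in Mirlet7b, Mirlet7c-2 or Mir98. The other precursor of let-7c-5p, Mirlet7c-1, held GGAG. A free GAU was found in 5, namely Mirlet7b, Mirlet7d, Mirlet7f-1, Mirlet7g and Mir98. Among the 645 RefSeq hairpins with both arms listed, 8.22% held GGAG and 15.0% a free GAU. Among the 62 with a stretch as long as those of let-7 (23 to 36 bases), let-7 included, the shares were 25.8% and 22.6%.

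The family made up between 6.61% and 10.4% of all miRNA counts in the libraries. It took 6.66% and 6.61% in adult TN cells, 10.4% and 9.25% in adult VM cells, 7.09% in neonatal TN (95% Wilson interval 7.06 to 7.11%, a range for counting error alone, as reads carried no molecular identifiers) and 7.73% and 7.77% in neonatal VM. Adult VM was thus the highest group by share and adult TN the lowest, and the libraries of no pair of groups overlapped. The order of the other groups depended on the scaling. In CPM, counts relative to the library total scaled by TMM factors, which adjust for RNA composition and ran from 0.78 in adult TN to 1.28 in neonatal VM, the family summed to 73919 and 84618 in adult TN cells, 113711 and 104888 in adult VM cells, 65755 in the neonatal TN library and 60298 and 61066 in neonatal VM cells. On that scale the 3 neonatal libraries were the lowest. All values below are TMM-scaled CPM unless a share or ratio is named. In sorted cells, fewer cells with a miRNA and less of it per cell cannot be told apart.

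**Figure D1:**
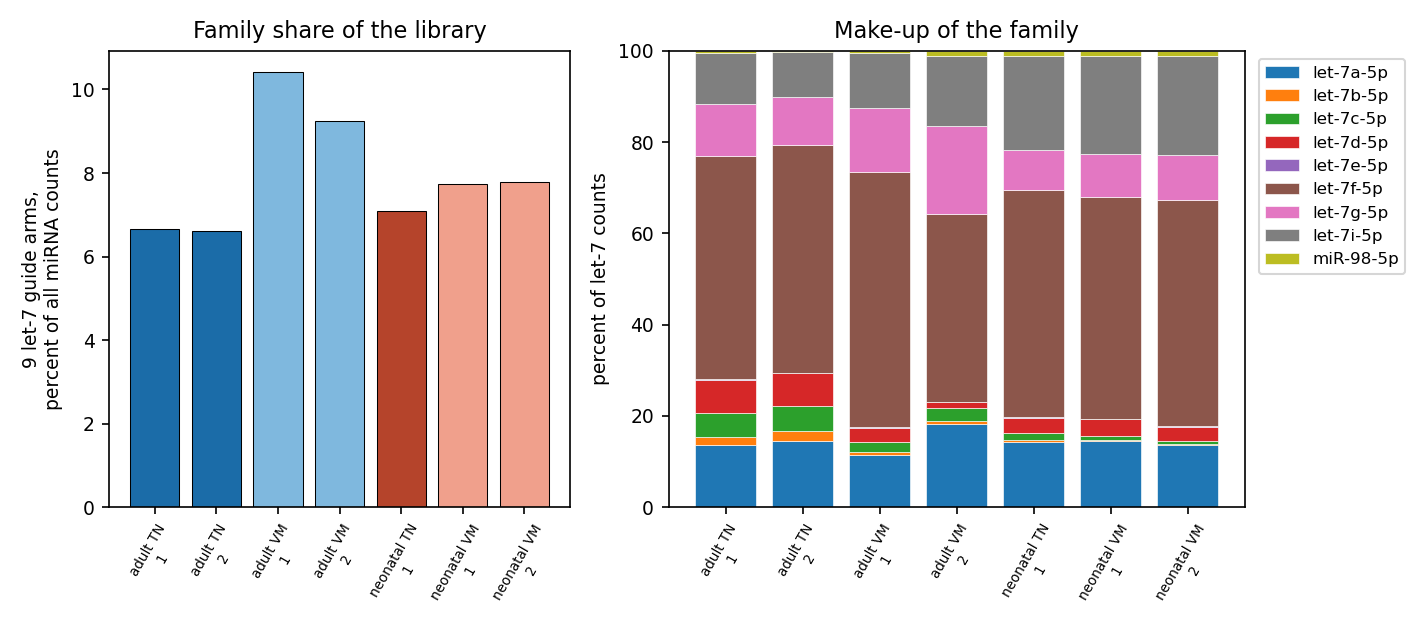
Left, the 9 let-7 guide arms as percent of all miRNA counts in each library (bars, linear axis from 0); right, the percent of let-7 counts taken by each member in the same libraries. The family took 6.61 to 6.66% in adult TN cells and 9.25 to 10.4% in adult VM cells, and let-7i-5p took 20.7% to 21.9% of let-7 counts in the 3 neonatal libraries.

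A single member, let-7f-5p, made up close to the same part of the family in nearly all libraries. It took 48.9% and 49.9% of let-7 counts in adult TN cells, 56.0% and 41.1% in adult VM cells, 49.8% in neonatal TN and 48.6% and 49.5% in neonatal VM. Next in order in adult TN were let-7a-5p (13.5% and 14.5%), let-7g-5p (11.5% and 10.5%) and let-7i-5p (11.2% and 9.87%), which lay close together. In the neonatal libraries the second place went to let-7i-5p, with 20.7% in TN and 21.5% and 21.9% in VM. The scarcest member was let-7e-5p, with 50.75 to 118.08 estimated counts per library and at most 0.065% of the family, so its values rest on few reads.

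**Figure D2:**
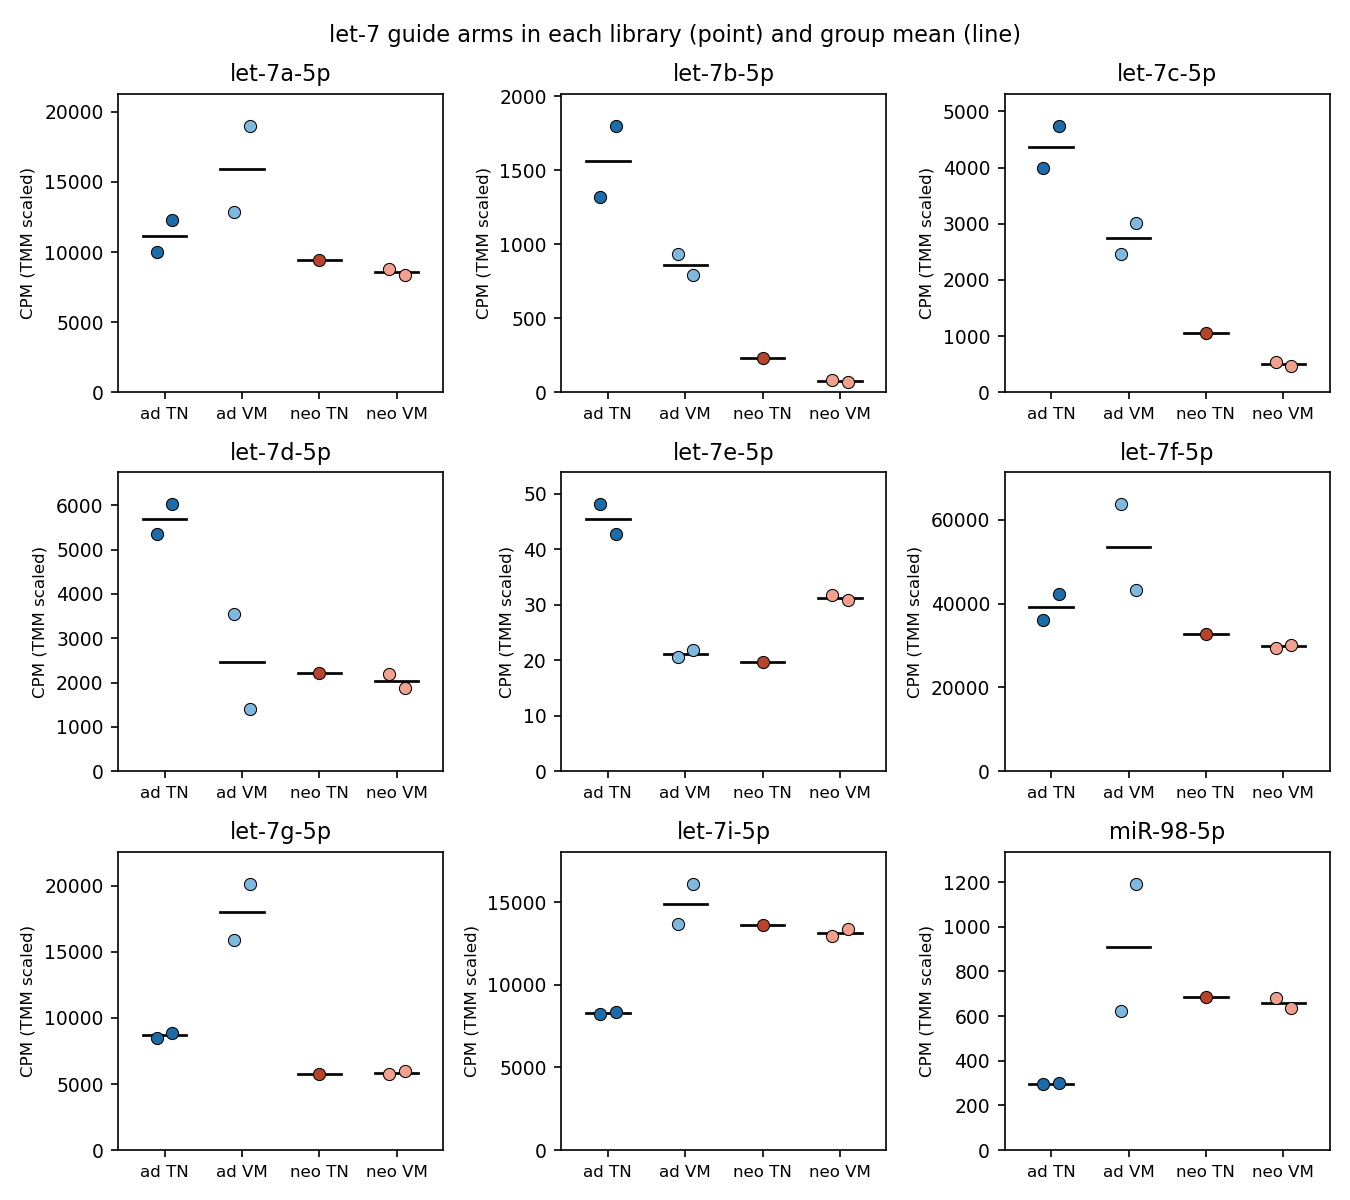
TMM-scaled CPM of each member in each library (points) with group means (lines), on linear axes that start at 0; ad is adult and neo neonatal. The 3 neonatal libraries lie far below the 4 adult libraries for let-7b-5p and let-7c-5p, but not for let-7i-5p or miR-98-5p.

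With age, let-7b-5p, let-7c-5p and let-7g-5p differed most, and let-7a-5p and let-7f-5p by less. Over both subsets, 5 of 9 were lower in neonatal cells and none higher, in edgeR's quasi-likelihood test at an adjusted p of 0.05, against 27.4% lower, 26.4% higher and 53.8% changed either way among all 288 tested miRNAs. The same 5, let-7a-5p, let-7b-5p, let-7c-5p, let-7f-5p and let-7g-5p, had no overlap between the 4 adult and 3 neonatal libraries, as did 47.6% of all tested miRNAs. The median log2 change of the members was -0.63, and that of all tested miRNAs -0.05.

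The largest difference was in let-7b-5p, a member known for targeting cell cycle genes. It stood at 1322 and 1802 CPM in adult TN cells, 932 and 793 in adult VM cells, 228 in neonatal TN and 84.1 and 70.0 in neonatal VM. Every neonatal library was below every adult one, and neonatal VM was the lowest. Over both subsets its log2 change, neonatal minus adult, was -3.19 (SE 0.24, adjusted p = 3.08e-05), a 9.13-fold lower level. By abundance it ranked between place 44 and place 64 among all miRNAs in the adult libraries, 104 in the neonatal TN library and 139 and 140 in neonatal VM cells.

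Close behind was let-7c-5p, whose 2 precursors include one beside Mirlet7b. Its levels were 3995 and 4748 CPM in adult TN cells, 2465 and 3010 in adult VM cells, 1051 in the neonatal TN library and 531 and 471 in neonatal VM cells. The order of the groups was the same as for let-7b-5p, and no group overlapped the next. The log2 change with age over both subsets was -2.29 (SE 0.20, adjusted p = 4.55e-05), 4.89-fold lower. Mirlet7b and Mirlet7c-2 both lie in an exon of the noncoding transcript Lncppara on chromosome 15, and Mirlet7c-1 lies in an intron of Mir99ahg on chromosome 16 (GENCODE M21). The mature let-7c-5p of both precursors is identical and its lines held near equal counts (a ratio of 0.994 to 1.013), so the source cannot be read from them. The ratio of let-7c-5p to let-7b-5p, which needs no scaling, was 2.64 and 3.02 in adult TN cells, 2.64 and 3.80 in adult VM cells, 4.61 in neonatal TN and 6.33 and 6.74 in neonatal VM.

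An intermediate decrease was seen for let-7g-5p, made from an intron of Wdr82 on chromosome 9. Its CPM was 8512 and 8872 in adult TN cells, 15886 and 20169 in adult VM cells, 5779 in the neonatal TN library and 5737 and 6005 in neonatal VM cells. The neonatal libraries lay within a narrow range, and adult VM stood above adult TN. Over both subsets the log2 change was -1.19 (SE 0.24, adjusted p = 0.00278), and -0.74 (adjusted p = 0.0149) with library totals alone. For let-7b-5p, let-7c-5p and let-7g-5p the call with age over both subsets and in VM held under every alternative run.

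Smaller decreases passed for let-7a-5p and let-7f-5p, which differ at 1 base. The level of let-7a-5p was 9984 and 12251 CPM in adult TN cells, 12858 and 19029 in adult VM cells, 9414 in the neonatal TN library and 8781 and 8363 in neonatal VM cells, with a log2 change of -0.63 (SE 0.22, adjusted p = 0.0356). The level of let-7f-5p was 36147 and 42230 CPM in adult TN cells, 63683 and 43155 in adult VM cells, 32777 in the neonatal TN library and 29309 and 30249 in neonatal VM cells, with a log2 change of -0.60 (SE 0.20, adjusted p = 0.0315). In both, the neonatal libraries were lowest but close to adult TN. Both calls depended on the scaling and on single libraries. Scaled by library totals alone, which moved the median of all tested miRNAs up by 0.45, the changes were -0.17 and -0.16 with adjusted p = 0.434 and 0.474. With a filter of 100 CPM in place of 10 the adjusted p was 0.077 for let-7a-5p and 0.0653 for let-7f-5p. Without neonatal VM replicate 1 the adjusted p was 0.0897 for let-7a-5p and 0.084 for let-7f-5p, and without replicate 2 it was 0.111 and 0.0929. Leaving out adult TN replicate 2 gave 0.0579 for let-7a-5p, leaving out adult VM replicate 2 moved its change to -0.40 (adjusted p = 0.0334), and leaving out adult VM replicate 1 gave 0.109 for let-7f-5p. Where a group is left with 1 library, here and below, that library is assumed to vary like the other groups.

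The other 4 members did not pass over both subsets. For let-7i-5p, made from an exon of the pseudogene transcript D630033A02Rik on chromosome 10, the levels were 8257 and 8355 CPM in adult TN cells, 13691 and 16125 in adult VM cells, 13594 in the neonatal TN library and 12953 and 13366 in neonatal VM cells. Adult TN was the low group, and the neonatal libraries lay just under adult VM. The log2 change with age was 0.19 (adjusted p = 0.463), and 0.63 (adjusted p = 0.0164) with library totals alone. For miR-98-5p, made from an intron of Huwe1 on the X chromosome, the levels were 297 and 300.0 CPM in adult TN cells, 624 and 1194 in adult VM cells, 686 in the neonatal TN library and 680 and 637 in neonatal VM cells. Adult TN was again lowest, and the change was 0.24 (adjusted p = 0.594), or 0.64 (adjusted p = 0.0337) without adult VM replicate 2. The change of let-7d-5p was -0.69 (SE 0.36, adjusted p = 0.14), but it passed with no filter (-0.83, adjusted p = 0.0059) and without adult VM replicate 2 (-1.08, adjusted p = 0.00137). That of let-7e-5p was -0.10 (adjusted p = 0.826).

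The balance between members, which no scaling can alter, differed with age. The ratio of let-7g-5p to let-7i-5p was 1.03 and 1.06 in adult TN cells, 1.16 and 1.25 in adult VM cells, 0.425 in neonatal TN and 0.443 and 0.449 in neonatal VM. The adult and neonatal libraries did not overlap, and within an age the subsets lay close together. The ratio of let-7i-5p to let-7b-5p was 4.64 and 6.25 in adult TN cells, 14.7 and 20.3 in adult VM cells, 59.6 in the neonatal TN library and 154 and 191 in neonatal VM cells. Here both age and subset separated the libraries, with VM above TN at each age. These ratios are given as descriptions without a test, since they were picked after the levels were known.

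**Figure D3:**
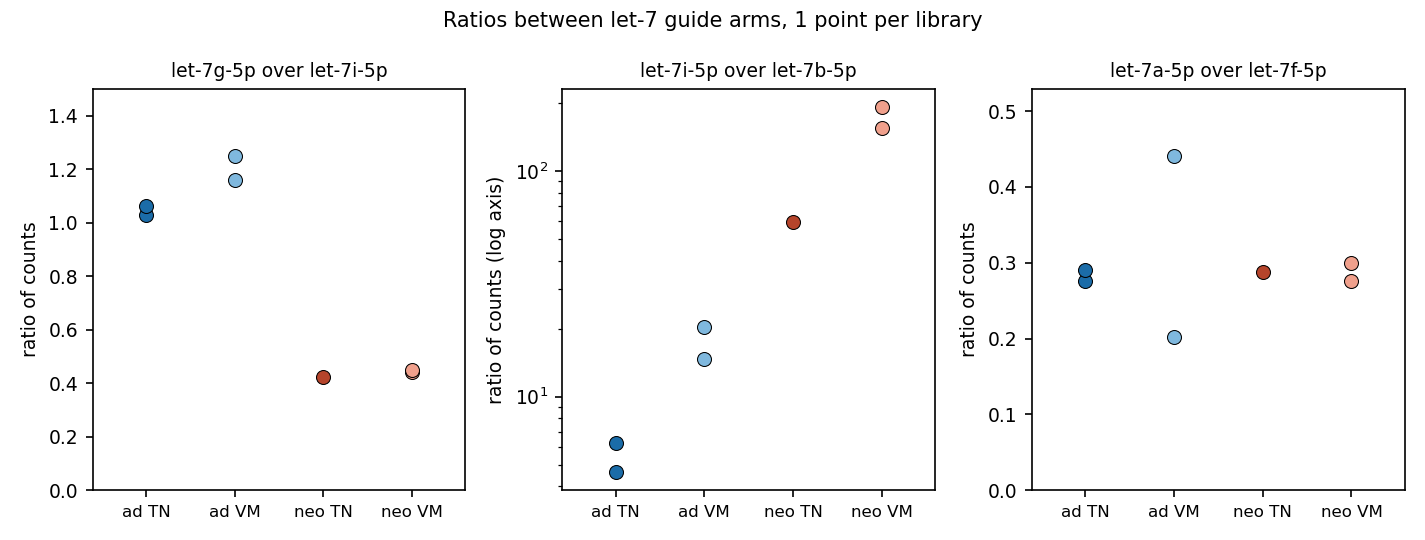
Ratios of raw counts between members in each library (points), with a log axis in the middle panel and axes from 0 in the others; ad is adult and neo neonatal. The ratio of let-7g-5p to let-7i-5p is 1.03 to 1.25 in adult and 0.425 to 0.449 in neonatal libraries, while let-7a-5p to let-7f-5p spans 0.202 to 0.441 between the adult VM libraries.

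Age was then compared within each subset. In TN, where 1 neonatal library faced 2 adult ones and the neonatal spread is taken from the other groups, 4 members were lower and 2 higher in neonatal cells, against 21.5% and 26.4% of tested miRNAs, or 47.9% either way. The decreases were in let-7b-5p (log2 change -2.78, SE 0.30, adjusted p = 2.26e-05), let-7c-5p (-2.06, SE 0.27, adjusted p = 8.06e-05), let-7e-5p (-1.21, SE 0.38, adjusted p = 0.0206) and let-7g-5p (-0.59, SE 0.23, adjusted p = 0.0491). The increases were in let-7i-5p (0.71, SE 0.20, adjusted p = 0.0146) and miR-98-5p (1.20, SE 0.33, adjusted p = 0.0146). Only the calls of let-7b-5p and let-7c-5p held without adult TN replicate 1, where 2 passed. Without adult TN replicate 2, 3 passed, as let-7e-5p did too. Leaving out neonatal VM replicate 1 or 2 ended the calls of let-7g-5p (adjusted p = 0.0872 and 0.0858) and let-7i-5p (0.092 and 0.0912). Other settings ended calls in TN too. With library totals alone let-7g-5p was at -0.23 (adjusted p = 0.381) and let-7e-5p at -0.85 (adjusted p = 0.0765), and with the 100 CPM filter let-7g-5p had an adjusted p of 0.0693. For let-7i-5p upper quartile factors gave 0.40 (adjusted p = 0.0994) and no filter 0.53 (adjusted p = 0.0583), while library totals alone gave 1.07 (adjusted p = 0.000989). The change of let-7d-5p in TN was -1.36 (SE 0.53, adjusted p = 0.0783), and it passed without either adult VM or either neonatal VM library, where its adjusted p was at most 0.049, and with DESeq2 (-1.39, adjusted p = 0.00756). The change of let-7f-5p was -0.26 (adjusted p = 0.412), with 0.0487 without adult VM replicate 2.

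In VM cells, 5 members were lower in neonatal cells and none higher, against 30.9% lower, 22.9% higher and 53.8% either way among tested miRNAs. The log2 changes were -3.49 for let-7b-5p (SE 0.24, adjusted p = 3.11e-07), an 11.2-fold lower level, -2.45 for let-7c-5p (SE 0.21, adjusted p = 1.94e-06) and -1.62 for let-7g-5p (SE 0.19, adjusted p = 2.05e-05). They were -0.90 for let-7a-5p (SE 0.21) and -0.84 for let-7f-5p (SE 0.20), each at adjusted p = 0.00379. With library totals alone let-7a-5p and let-7f-5p lost the call (adjusted p = 0.103 and 0.149). The change of let-7a-5p was -0.53 without adult VM replicate 2 and that of let-7f-5p -0.54 without replicate 1, both still past the test. Changes of -0.28 for let-7d-5p, -0.18 for let-7i-5p, -0.46 for miR-98-5p and 0.56 for let-7e-5p did not pass. Of these, let-7e-5p was higher in neonatal VM with library totals alone (1.07, adjusted p = 0.00992), and miR-98-5p was lower with no filter (-0.58, adjusted p = 0.0241). The values of let-7d-5p and miR-98-5p rested on single adult VM libraries. Without adult VM replicate 1 they were 0.54 (adjusted p = 0.0268) and -0.86 (adjusted p = 0.000377), and without replicate 2 let-7d-5p was at -0.75 (adjusted p = 1.31e-07) and miR-98-5p at 0.13.

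**Figure D4:**
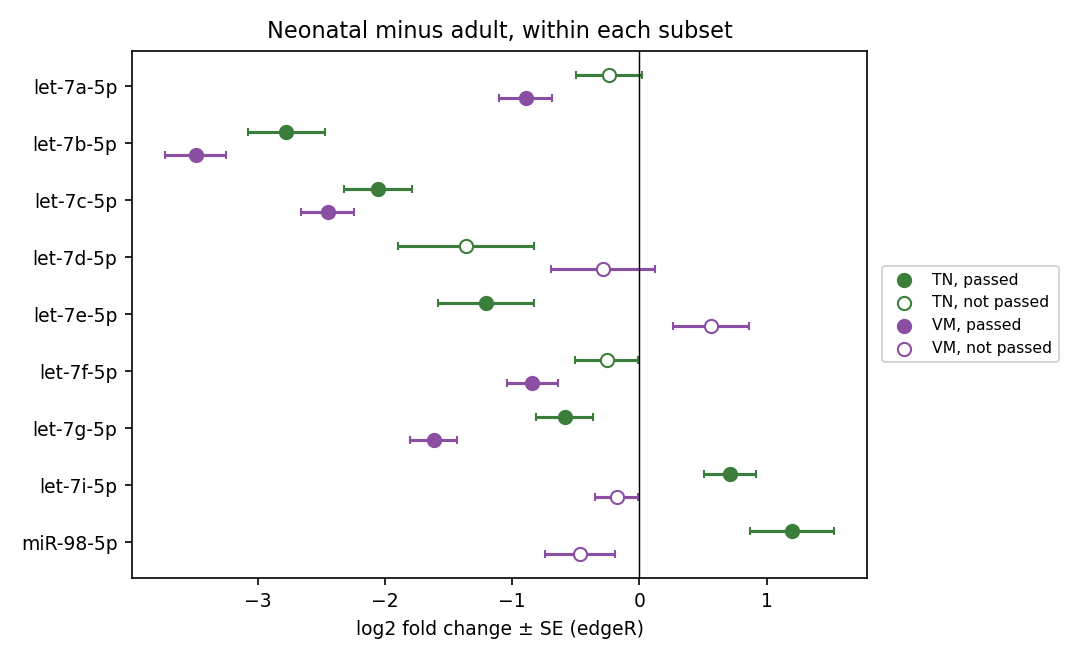
Log2 fold change of neonatal minus adult with its standard error for each member in TN and VM cells; filled points passed at an adjusted p of 0.05. Both let-7b-5p and let-7c-5p lie below -2.05 in both subsets, while let-7i-5p and miR-98-5p are above 0 in TN and below 0 in VM.

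Between the subsets, adult VM cells differed from adult TN cells in both directions. In VM relative to TN, 3 members were higher and 3 lower, against 23.3% and 15.6% of tested miRNAs, or 38.9% either way. The higher ones were miR-98-5p (log2 change 1.61, SE 0.28, adjusted p = 0.00231), let-7g-5p (1.05, SE 0.18, adjusted p = 0.00109) and let-7i-5p (0.84, SE 0.17, adjusted p = 0.0032). The lower ones were let-7e-5p (-1.10, SE 0.30, adjusted p = 0.0133), let-7b-5p (-0.86, SE 0.21, adjusted p = 0.00862) and let-7c-5p (-0.68, SE 0.20, adjusted p = 0.0185). The level of let-7e-5p was 48.0 and 42.8 CPM in adult TN cells, 20.5 and 21.8 in adult VM cells, 19.6 in the neonatal TN library and 31.6 and 30.8 in neonatal VM cells. Each of these 6 calls needed adult TN replicate 2, without which none passed by edgeR (adjusted p = 0.057 to 0.151, and 6 members at an unadjusted p under 0.05), and 3 passed without adult TN replicate 1 (let-7b-5p, let-7c-5p and let-7g-5p). Without adult TN replicate 2 the 6 changes ran from -1.23 for let-7e-5p to 1.57 for miR-98-5p. The size of the miR-98-5p change rested on the adult VM libraries, at 0.94 (adjusted p = 2.39e-07) without adult VM replicate 2 and 1.97 without replicate 1.

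The adult VM replicates stood apart from each other for several members. For let-7d-5p they were 3553 and 1392 CPM, a 2.55-fold difference, against 5357 and 6017 in adult TN, 2209 in the neonatal TN library and 2191 and 1872 in neonatal VM cells. Both adult VM libraries were below both adult TN libraries, yet the change of -1.20 (SE 0.41) had an adjusted p of 0.0581. Leaving out any 1 of the 4 VM libraries brought that p to 0.0408 or less, with changes of -2.07 and -0.80 without adult VM replicates 1 and 2. It also passed with RLE factors (adjusted p = 0.0412), the 100 CPM filter (0.0314), DESeq2 (0.00258) and the replicate block (0.0213). It did not pass with library totals alone (0.108), upper quartile factors (0.094), no filter (0.201) or scaling without let-7 (0.0543). Nor did it with limma voom (0.0503) or the largest precursor line (0.0519). Without adult TN replicates 1 and 2 the change was -1.40 and -1.18. Replicate 1 held more let-7f-5p and replicate 2 more let-7a-5p, each by 1.48-fold, and their ratio was 0.202 and 0.441, against 0.276 to 0.300 in the other 5 libraries. For miR-98-5p the replicates differed 1.91-fold. The median over all tested miRNAs was 1.27-fold in adult VM. The changes of let-7a-5p (0.52, adjusted p = 0.0649) and let-7f-5p (0.45, adjusted p = 0.0898) did not pass. They did pass with library totals alone (0.62 and 0.56, adjusted p = 0.0243 and 0.0424) and with no filter (0.53 and 0.45, adjusted p = 0.0177 and 0.0351), so that 8 of the 9 members passed under each of these settings. Without adult VM replicate 1 let-7a-5p did (0.74, adjusted p = 0.000849), and without replicate 2 let-7f-5p did (0.59, adjusted p = 6.03e-05).

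In neonatal cells, with 1 TN library, 2 members were lower in VM and none higher, against 6.6% lower, 3.12% higher and 9.72% either way among tested miRNAs. They were let-7b-5p (log2 change -1.57, SE 0.26, adjusted p = 0.00158) and let-7c-5p (-1.07, SE 0.23, adjusted p = 0.0118), the same pair that was lower in adult VM. With upper quartile factors the change of let-7c-5p was -0.69 (adjusted p = 0.0484). Its call ended without neonatal VM replicate 1 (adjusted p = 0.0827), neonatal VM replicate 2 (0.213) or adult TN replicate 2 (0.0751). For let-7a-5p, let-7d-5p, let-7f-5p, let-7g-5p, let-7i-5p and miR-98-5p the differences lay between -0.14 and 0.02 and did not pass, and for let-7e-5p it was 0.67 (adjusted p = 0.306). Over both ages, let-7b-5p (-1.14, SE 0.21, adjusted p = 0.0097) and let-7c-5p (-0.83, SE 0.18, adjusted p = 0.0168) were lower in VM, against 13.9% lower, 10.8% higher and 24.7% either way among tested miRNAs, and no other member passed. With library totals alone, let-7g-5p (0.78, adjusted p = 0.0319) and let-7i-5p (0.63, adjusted p = 0.0391) were higher in VM over both ages. That call of let-7c-5p ended without adult VM replicate 1 (adjusted p = 0.0597), adult TN replicate 2 (0.0816) or neonatal VM replicate 2 (0.0709). Without the neonatal TN library only adult cells hold both subsets, and 6 members passed.

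**Figure D5:**
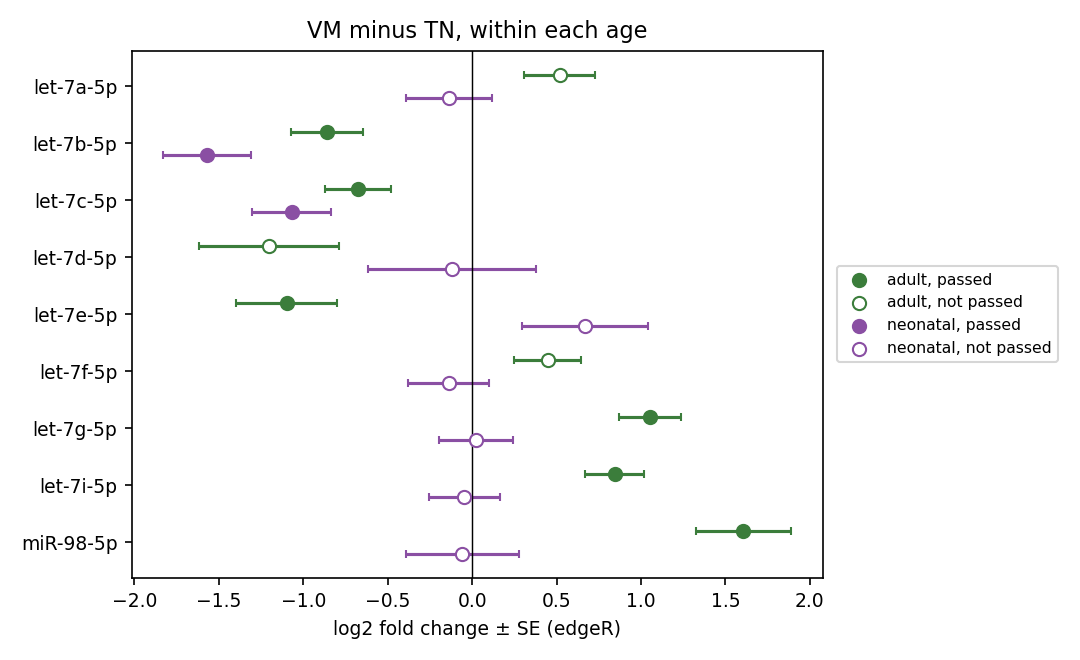
Log2 fold change of VM minus TN with its standard error for each member in adult and neonatal cells; filled points passed at an adjusted p of 0.05. Both let-7b-5p and let-7c-5p are below 0 at both ages, while let-7g-5p, let-7i-5p and miR-98-5p are at 0.84 or above in adult cells and near 0 in neonatal cells.

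The test of the difference itself, the interaction of age and subset, passed for 3 members, 2 below 0 and 1 above, against 6.25% below 0, 1.74% above and 7.99% either way among tested miRNAs. The neonatal VM minus TN difference less the adult one was -1.03 for let-7g-5p (log2 scale, SE 0.28) and -1.66 for miR-98-5p (SE 0.43). For let-7e-5p it was 1.77 (SE 0.48), and all 3 had an adjusted p of 0.0438. The VM minus TN difference of let-7e-5p turned from -1.10 in adult to 0.67 in neonatal cells, the latter not past the test. For let-7i-5p the interaction was -0.89 with adjusted p = 0.0582, and for the other 5 it did not pass. The interaction of let-7i-5p passed with no filter (-0.83, adjusted p = 0.0471). That of miR-98-5p was -1.03 without adult VM replicate 2 and -2.03 without replicate 1. None of the 3 passed without adult TN replicate 1 or 2 or neonatal VM replicate 1 or 2, where their adjusted p was 0.0617 to 0.354 by edgeR and 2 to 4 of the 9 members had an unadjusted p under 0.05. With another scaling, 1 of the 3 passed, let-7e-5p, and let-7g-5p and miR-98-5p did not. With the replicate number as a block, let-7e-5p did not pass (1.79).

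The Mirlet7e precursor lies in an intron of Spaca6 on chromosome 17, with those of miR-99b and miR-125a, and the neighbours were also lower in adult VM than in adult TN cells. Of the 7 miRNA arms from the precursors that share transcripts with let-7, 2 were abundant enough to test. The level of miR-99b-5p was 108 ± 26.9 CPM in adult TN cells, 27.6 ± 2.56 in adult VM cells, 80.9 in neonatal TN and 60.9 ± 2.20 in neonatal VM (SD, n = 2). That of miR-125a-5p was 214 ± 25.8, 64.9 ± 3.82, 101 and 86.7 ± 11.5 in the same order. As for let-7e-5p, adult VM was below adult TN, at log2 changes of -1.97 for miR-99b-5p and -1.72 for miR-125a-5p (adjusted p = 0.000335 and 0.000252). The interaction was 1.56 for miR-99b-5p (adjusted p = 0.0518) and 1.50 for miR-125a-5p (adjusted p = 0.0323). For miR-125a-5p that call ended without adult TN replicate 1 (0.12), adult TN replicate 2 (0.155) or neonatal VM replicate 2 (0.063). The arms from the transcripts of let-7a-2 and let-7c-1, miR-99a-5p, miR-100-5p and miR-125b-5p, were at 2.57 CPM or less in every library.

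The precursors Mirlet7a-1, Mirlet7f-1 and Mirlet7d lie in exons of the noncoding transcript 6720427I07Rik on chromosome 13. Mirlet7a-2 lies in an intron of 3110039I08Rik and Gm49317 on chromosome 9, and Mirlet7f-2 beside Mir98 in an intron of Huwe1. The guide arms of these pairs have the same sequence, and their lines held counts of like size, with ratios of 0.977 to 0.997 for let-7a and 0.837 to 0.910 for let-7f, so the reads do not tell the precursors apart.

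The other arms of the precursors, the passenger strands, are usually degraded but can be counted. The table lists 14 names of let-7 or miR-98 beside the 9 guide arms, these being 12 passenger arms, let-7j and let-7k, and 10 were abundant enough to test. With age over both subsets 9 were lower in neonatal cells, the 9 passenger arms, with a median log2 change over the 10 of -1.52. Among all tested miRNAs 27.4% were lower and 53.8% changed either way, with a median of -0.05. The passenger arms are not independent, since let-7a-1-3p and let-7c-2-3p have the same mature sequence in RefSeq and hold the same values in every library. With library totals alone 7 were lower and 1 higher, and without neonatal VM replicate 2 or adult VM replicate 1 there were 7 lower. The passenger arm of let-7i, let-7i-3p, was lower (-1.62, SE 0.26, adjusted p = 0.000885), whereas its guide was not. That of miR-98, miR-98-3p, was lower too (-0.82, SE 0.25, adjusted p = 0.0209), but not with library totals alone (-0.37, adjusted p = 0.199) or without adult VM replicate 1 (0.0643) or neonatal VM replicate 2 (0.0835). The difference between guide and passenger was not tested. Passenger arms separate the 2 let-7f precursors. The arm of Mirlet7f-1, let-7f-1-3p, was at 47.6 ± 9.79 CPM in adult TN cells, 39.9 ± 5.71 in adult VM cells, 5.29 in the neonatal TN library and 8.99 ± 1.27 in neonatal VM cells (SD, n = 2). That of Mirlet7f-2, let-7f-2-3p, was at 56.2 ± 1.63, 82.6 ± 0.457, 20.8 and 24.3 ± 0.769 CPM in the same order. Both were lower in neonatal cells over both subsets, at log2 changes of -2.52 for let-7f-1-3p (SE 0.32, adjusted p = 0.000272) and -1.63 for let-7f-2-3p (SE 0.21, adjusted p = 0.000322), and the difference between them was not tested. For the other pairs, let-7a-2-3p and let-7c-1-3p had 0 counts in every library, which at 3 counts allows up to 0.915 to 1.90 CPM before TMM scaling.

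The name let-7j is close to let-7i-5p in sequence, with G8U and 2 more bases at its end, and so has another seed, GAGGUAU. It held 10.5% to 13.0% as many counts as let-7i-5p in every library, and its log2 change with age was 0.39 (adjusted p = 0.146). Reads of the 2 names could be exchanged by a single miscalled base, which was not tested.

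A list of 3 other miRNAs whose precursor loops are known for a GGAG motif was set beside the members. With age over both subsets, none of the 3 was lower and 1 was higher in neonatal cells past the test. Of all tested miRNAs, 27.4% were lower and 26.4% higher. The log2 change with age was 0.32 for miR-107-3p and -0.44 for miR-200c-3p, neither past the test, and miR-143-3p was higher at 1.82 (adjusted p = 0.0163). The latter is also one of the stromal markers described below with the other cell types, and stood at 6.65 ± 3.30 CPM in adult TN cells, 21.2 ± 6.66 in adult VM cells, 67.2 in the neonatal TN library and 37.8 ± 8.66 in neonatal VM cells (SD, n = 2). It made up much of that list's sum, 67.2 of 97.4 CPM in the neonatal TN library, so the list is no separate comparison. The part of stromal cells in the value was not tested.

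Outside the family, the profiles nearest to 3 let-7 profiles were found by their likeness over the libraries. Likeness was the root mean square difference of centred log2 CPM over the 7 libraries, among 158 non-members with a mean of at least 50 CPM. Nearest to let-7b-5p was miR-467d-5p at 0.390, then miR-669a-3p at 0.750, miR-361-3p at 0.771 and miR-29a-3p at 0.778, with a median of 1.83 over the candidates. Within the family, let-7c-5p was at 0.520 from let-7b-5p. The mean of miR-467d-5p was 628 ± 4.60 CPM in adult TN cells, 255 ± 76.6 in adult VM cells, 104 in neonatal TN and 42.2 ± 3.20 in neonatal VM (SD, n = 2). It thus had the same order of groups as let-7b-5p, adult TN highest and neonatal VM lowest. Nearest to the family sum were miR-378c (0.131), miR-27b-3p (0.162), miR-378a-3p (0.176) and miR-25-3p (0.177), where the median was 0.614. For let-7f-5p they were miR-378c (0.171), miR-27b-3p (0.236), miR-25-3p (0.249) and miR-1964-3p (0.255), where the median was 0.626. These are descriptions over libraries that share preparation but differ in depth, as given below.

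Totals ran from 1577031 to 3278449 counts. The 4 miRNAs listed here as T lymphocyte markers were miR-150-5p, miR-142a-3p, miR-142a-5p and miR-181a-5p. That they are particular to T cells was not tested. All were detected in every library, summing to 494708 to 586293 CPM in adult TN, 338209 to 375736 in adult VM, 282640 in the neonatal TN library and 162102 to 170707 in neonatal VM cells. Markers of other cells summed to 592 CPM or less per list. The 5 stromal markers summed to 14.6 to 29.5 CPM in adult TN, 26.2 to 49.4 in adult VM, 97.4 in neonatal TN and 58.5 to 69.7 in neonatal VM, with miR-214-3p at 0 in all 7 libraries and miR-145a-5p in 6. The 2 endothelial markers summed to 8.09 to 8.99, 21.7 to 26.3, 56.9 and 54.4 to 75.8 CPM in the same order, so both sums were higher in the neonatal libraries. With age over both subsets, 1 of 2 tested stromal markers was higher, miR-143-3p, and miR-10b-5p (0.73, adjusted p = 0.205) did not pass. Both endothelial markers were higher, miR-126a-3p by 1.28 (adjusted p = 0.0122) and miR-126a-5p by 2.17 (adjusted p = 0.00326) on the log2 scale. Of all tested miRNAs, 26.4% were higher with age and 53.8% changed either way. The 4 erythroid markers summed to 243 to 325, 493 to 592, 446 and 156 to 178 CPM, with miR-451a at 9.65 CPM or less. That sum was mostly miR-486a-5p and miR-486b-5p, whose means were near equal (270 and 269 CPM in adult VM). Neither passed with age over both subsets or in TN, or by subset over both ages. Both were lower in neonatal than in adult VM, higher in adult VM than adult TN, and lower in neonatal VM than neonatal TN. Their interaction passed below 0. The shares of all tested miRNAs for these 4 results were 30.9%, 23.3%, 6.6% and 6.25% in the same order. The 2 myeloid markers summed to 15.9 CPM or less. The part of these cells in the let-7 results was not tested. Whether replicates were separate animals is not stated in the labels, so the p-values reflect only how far these libraries differed, which could be technical.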

How the data were processed

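CD8+ T cells of gBT-I spleens were enriched with beads and sorted on CD44 and CD122, with TruSeq small RNA libraries, per the labels' protocols. The authors deposited estimated counts per mature arm and precursor on mm10, per the submitters' processing notes, and the aligner and counter are not given in the sources used here. Of the nonzero sums per name, 84.0% lay within 0.02 of a whole number (members, 15.9%), and sums were rounded. Testing covered the 288 miRNAs that reached 10 CPM (15.8 to 32.8 counts) in 2 or more libraries, with edgeR 4.0.16 (R 4.3.3), TMM factors, robust quasi-likelihood and Benjamini-Hochberg adjustment over all 288. Age and subset over both used an additive model (4 residual degrees of freedom), the other comparisons a cell means model (3). As alternatives, libraries were scaled by RLE factors, their totals, upper quartiles or without let-7, and the others were no filter, a 100 CPM filter, DESeq2 1.42.0, limma 3.58.1 (voom), a replicate block, the largest precursor line and each library left out. The fit was tested on simulated data. All 9 members are named, with the 4 nearest profiles; list miRNAs above the filter could be named with values, and not all are. Passenger arms, let-7j and list miRNAs below the filter were named after their values were seen. The members and lists were chosen with earlier results of these data known. Figures used matplotlib 3.10.9.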

Additional observations from a re-analysis of the deposited data

Results flagged for a closer look

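The subset difference itself differed between adult and neonatal cells for 3 members, by the interaction term of edgeR's quasi-likelihood test. Of all 288 tested miRNAs, 7.99% passed that test either way. For let-7e-5p the interaction was 1.77 on the log2 scale, the VM minus TN difference turning from -1.10 in adult to 0.67 in neonatal cells. For let-7g-5p the interaction was -1.03, from 1.05 to 0.02, and for miR-98-5p it was -1.66, from 1.61 to -0.06, and -1.03 without adult VM replicate 2. Each had an adjusted p of 0.0438, with a single neonatal TN library behind the neonatal difference. With any other scaling let-7g-5p and miR-98-5p did not pass. The calls also depended on single adult TN and neonatal VM libraries, as described above.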

How the results depend on the processing

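Counts of members past the test moved with the settings, and the shifts included the following. Over both subsets, 3 passed with age under the 100 CPM filter instead of 5. Over both ages, 4 passed by subset with library totals alone, 5 with upper quartile factors and 5 with no filter, instead of 2. With age in TN, 4 passed with library totals alone, 4 with the 100 CPM filter and 7 with DESeq2, instead of 6. With age in VM, 4 passed with library totals alone and 6 with no filter, instead of 5. The interaction count was 4 with no filter and 2 with limma voom. For the interaction, 1 passed instead of 3 with RLE factors, library totals alone, upper quartile factors, scaling without let-7 and the largest precursor line, and 0 of 8 with the 100 CPM filter, under which let-7e-5p was not tested (3 at an unadjusted p under 0.05, edgeR; let-7g-5p at -0.88, adjusted p = 0.0602). Taking the largest precursor line in place of the sum, the family share was 5.18% in adult TN cells, 7.60% in adult VM cells, 6.26% in the neonatal TN library and 6.31% in neonatal VM cells; the line holds part of the counts by construction.

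Leaving out 1 library gave 3 to 7 members with age over both subsets, 1 to 6 by subset over both ages, 2 to 8 with age in TN, 5 to 7 with age in VM, 0 to 8 by subset in adult cells, 1 to 2 by subset in neonatal cells and 0 to 7 for the interaction. The interaction counts were 6 and 7 without adult VM replicates 1 and 2 and 0 without either adult TN or either neonatal VM library. At an unadjusted p under 0.05, edgeR gave 4 and 3 members there without adult TN replicates 1 and 2, 2 and 3 without neonatal VM replicates 1 and 2, and 6 by subset in adult cells without adult TN replicate 2. The family share stayed at 6.61 to 6.66% in adult TN, 9.25 to 10.4% in adult VM and 7.73 to 7.77% in neonatal VM. Age in TN, subset in neonatal cells and the interaction could not be fitted without the neonatal TN library. For these runs and the alternative settings above, the share of all tested miRNAs that passed is not given here. The counts thus cannot be read as particular to let-7. The cause of these shifts was not tested.

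Signs turned only for changes that had not passed. With library totals alone these were let-7e-5p with age over both subsets (0.35), let-7a-5p and let-7f-5p with age in TN (0.13 and 0.11), let-7d-5p, let-7i-5p and miR-98-5p with age in VM (0.21, 0.33 and 0.051), and by subset in neonatal cells let-7a-5p (0.11), let-7d-5p (0.13), let-7f-5p (0.11), let-7i-5p (0.20) and miR-98-5p (0.19). Upper quartile factors turned the same 5 in neonatal cells (0.24, 0.26, 0.24, 0.33 and 0.32) and let-7c-5p for the interaction (0.016). In neonatal cells let-7i-5p was at 0.020 with RLE factors, 0.018 with no filter and 0.020 with DESeq2, and miR-98-5p at 0.010, 0.0081 and 0.011, while the 100 CPM filter put let-7i-5p with age in VM at 0.041. Library totals alone moved the median of all tested miRNAs by 0.36 in TN and 0.51 in VM with age, and upper quartile factors by 0.38 by subset in neonatal cells and 0.40 for the interaction.

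With a library left out, the changes over both subsets with age ran from -0.37 to 0.59 for let-7e-5p, -0.15 to 0.33 for let-7i-5p and -0.44 to 0.64 for miR-98-5p, and in VM from -0.75 to 0.54 for let-7d-5p and -0.86 to 0.13 for miR-98-5p. By subset over both ages they ran from -0.032 to 0.51 for let-7a-5p and -0.020 to 0.44 for let-7f-5p. In neonatal cells they ran from -0.16 to 0.052 for let-7d-5p, -0.014 to 0.14 for let-7g-5p, -0.084 to 0.057 for let-7i-5p and -0.10 to 0.053 for miR-98-5p; without adult VM replicate 2 let-7g-5p was at -0.0031.

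Whether equal replicate numbers mark paired samples is not stated in the labels. Deviations of same-numbered libraries correlated at 0.02, -0.16 and 0.14 between groups. With so few replicates these values cannot settle it. With the replicate number as a block, 4 members passed with age over both subsets, 6 in TN, 5 in VM, 7 by subset in adult cells, 2 in neonatal cells, 2 over both ages and 2 for the interaction. The 6 in TN lack let-7g-5p (-0.51, adjusted p = 0.122) and include let-7d-5p (-1.63, adjusted p = 0.0266). The 2 for the interaction lack let-7e-5p (1.79). By subset in neonatal cells let-7d-5p turned to 0.11 and let-7g-5p to -0.055. Depth limits let-7e-5p most, at 50.75 to 118.08 counts per library.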
